A study of Rattus norvegicus with 75 samples.

Results

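The genes described here encode the machinery that carries a cell from the G1 phase into S phase and copies its DNA. They were chosen by name: 46 symbols were listed, 45 of them are rows of the deposited table of 32754 genes, and E2f1 was not analysed here. The 45 members were followed in all 75 libraries of the series, which were made from microdissected kidney tubules of male Sprague-Dawley rats weighing 120 to 160 g. The libraries fall into 10 groups by tubule segment, food and time. The cortical collecting duct (CCD) is lined by principal cells, which reabsorb sodium and water, and by intercalated cells, which move acid and base. The cortical thick ascending limb (cTAL) lies upstream and takes up salt without water. All rats ate normal chow before the experiment, and during it they ate food without lithium or food with 40 mM lithium chloride per kg. The numbers of control and lithium libraries from CCD were 3 and 2 (12 h), 3 and 3 (24 h), 3 and 3 (36 h) and 17 and 19 (72 h). From cTAL they were 12 and 10, all at 72 h. The series asks which signals start the loss of urinary concentration that lithium causes.

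Before S phase, the proteins Cdc6 and Cdt1 load the ring-shaped helicase made of Mcm2 to Mcm7 onto replication origins, a step called licensing. Cyclin E, encoded by Ccne1 and Ccne2, activates the kinase Cdk2, and Cdc45 and the GINS complex (Gins1 to Gins4) then turn the loaded rings into moving helicases. Primase and polymerase alpha start each new strand, the clamp loader places the ring-shaped clamp Pcna, and the polymerases delta and epsilon extend the strands. Ribonucleotide reductase, thymidylate synthase and related enzymes supply the deoxynucleotides. Many of these genes are transcribed under E2F factors, which are released when the retinoblastoma protein is phosphorylated late in G1. Lithium salts have long been known to be followed by proliferation in the collecting duct, an epithelium that otherwise divides rarely.

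Levels are TPM, the length-normalised share of transcripts that a gene takes in a library, as deposited, and TPM allows levels of different genes to be compared because it is divided by transcript length. Differences were computed from log2(TPM + 1), so the change of a gene at low TPM is understated, and they are lithium minus control unless another contrast is named. A gene was called when limma's p, adjusted by Benjamini-Hochberg over all genes tested, was under 0.05. Sequencing depth is unknown, and between 10888 and 12411 genes reached 1 TPM in a library. The labels do not tie libraries to animals. Runs of consecutively numbered libraries shared 1 pattern over 5 genes (Pfdn6, Slc39a1, H3f3c, Mrps10 and Repin1) whose values fell into separate high and low levels. Each of the 4 groups at 72 h held 4 such sets, and each of the 6 early groups held 1. Set 1 of control cTAL was a single library, control cTAL 1. The 5 genes were chosen after earlier results of these data were seen. Whether a set is 1 rat was not tested. The p-values over libraries reflect their spread, part of which may be technical, and are too small if libraries of a set share a rat, so counts of calls are also given on means of sets. The 4 control and the 4 lithium sets of CCD at 72 h had the same patterns, in the same order, as those of cTAL. In CCD at 72 h control set 3 and lithium set 1 also shared 1 pattern, and so did set 4 of both foods. A pattern can therefore recur in different rats and does not by itself name an animal. Whether sets with 1 pattern come from the same rats was not tested. Because each early group is 1 set, lithium and a difference between sets cannot be told apart at 12, 24 or 36 h, where the fit on set means takes its spread from the sets at 72 h. By their correlation with the rest of their group, 5 libraries stood apart, all at 72 h: control CCD 3 and 17, control cTAL 1 and 5, and lithium cTAL 9. Control libraries carried the markers of their label. Summed over 9 thick ascending limb markers the level was 53580 to 89917 TPM in control cTAL and 672 to 1534 TPM in control CCD at 72 h, and summed over 12 principal cell markers it was 846 to 1733 TPM and 11540 to 19594 TPM.

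The promoters of the members are shown first, because E2F factors are the textbook regulators of this gene group. RefSeq promoters of the GRCr8 assembly, spanning 250 bases before to 50 bases after the start of the gene, matched 38 of the 45 members by symbol. That assembly is not the build of the expression values, which is Rnor_6.0. The 3 E2F motifs of 8 letters, TTTCGCGC, TTTGGCGC and TTTCCCGC, were searched on both strands. At least 1 of them lay in 18 of the 38 member promoters (47.4%) and in 501 of 27457 promoters of all genes (1.82%). Singly they were found in 9 (23.7%), 9 (23.7%) and 7 (18.4%) member promoters, against 0.342%, 0.521% and 1.03% of all promoters. TTTCGCGC and TTTGGCGC can overlap themselves on opposite strands, and such a stretch counts once per strand. The 5-letter CCAAT box was in 22 member promoters (57.9%) and in 37.7% of all. For comparison, an E2F motif lay in 12 of 26 promoters of replication genes outside the members (46.2%), a share like that of the members. It lay in 7 of 20 promoters of G1/S regulators and E2F network genes outside the members (35.0%). Of G2/M genes, which act in mitosis, 1 of 18 promoters held an E2F motif (5.56%) and 15 of those 18 held CCAAT (83.3%).

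Shown here are the 150 bases before the start, 5′ to 3′ on the strand of the gene, for 6 members that are among the 2 of highest mean TPM in their role group and hold a motif within that stretch. Other members with a motif, among them Mcm3, Mcm5, Gins3 and Pola1, are not shown. Capitals mark the motif, which reads in reverse complement (GCGCGAAA, GCGCCAAA or GCGGGAAA) where it lies on the other strand.
Mcm2: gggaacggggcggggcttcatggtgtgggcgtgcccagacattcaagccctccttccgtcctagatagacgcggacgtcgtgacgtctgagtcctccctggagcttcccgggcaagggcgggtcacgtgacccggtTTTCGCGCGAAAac
Mcm7: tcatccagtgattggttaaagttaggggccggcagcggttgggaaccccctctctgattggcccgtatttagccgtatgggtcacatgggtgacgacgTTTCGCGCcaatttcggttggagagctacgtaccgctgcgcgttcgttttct
Gins1: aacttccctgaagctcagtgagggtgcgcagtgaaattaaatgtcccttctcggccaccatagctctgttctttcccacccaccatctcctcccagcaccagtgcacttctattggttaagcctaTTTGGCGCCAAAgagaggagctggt
Tyms: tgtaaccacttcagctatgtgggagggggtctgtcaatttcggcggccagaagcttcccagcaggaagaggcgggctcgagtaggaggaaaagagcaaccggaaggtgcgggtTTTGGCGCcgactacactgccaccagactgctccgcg
Cdca7: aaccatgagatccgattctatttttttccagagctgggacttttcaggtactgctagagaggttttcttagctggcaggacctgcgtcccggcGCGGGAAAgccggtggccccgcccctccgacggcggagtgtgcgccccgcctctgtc
Tcf19: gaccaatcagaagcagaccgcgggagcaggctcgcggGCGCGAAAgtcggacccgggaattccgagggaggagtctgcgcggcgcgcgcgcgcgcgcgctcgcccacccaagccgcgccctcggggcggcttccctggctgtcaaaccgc

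These stretches are chr4:122918095-122918244 (minus strand) for Mcm2, chr12:22163179-22163328 (minus strand) for Mcm7, chr3:160184770-160184919 (plus strand) for Gins1, chr9:120776084-120776233 (minus strand) for Tyms, chr3:77730165-77730314 (plus strand) for Cdca7 and chr20:3223314-3223463 (plus strand) for Tcf19, all in GRCr8. In Mcm2 and in Gins1 the motif overlaps its own copy on the other strand, 14 and 25 bases before the start. A second match in Mcm7, 233 bases before the start, lies outside the stretch shown. A match of letters does not show that a factor binds there. As a description with no test, the 18 members with a motif had a median log2 difference of 1.15 at 12 h, 2.39 at 24 h, 2.32 at 36 h and 1.12 at 72 h in CCD. The 20 members without one had medians of 0.93, 2.05, 2.01 and 0.98. The ranges of both overlapped at every time, and Tyms, which holds a motif, was among the members that differed least.

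The replication genes were higher in CCD of lithium-fed rats at each time studied. At 12 h 38 of the 45 members were called higher and 0 lower, where 7.10% of all 12998 genes tested were called higher and 3.30% lower. Their median log2 difference was 1.07, against 0.059 for all genes. At 24 h and again at 36 h all 45 members were called higher, against 18.3% and 23.7% of all genes. The medians were 2.31 and 2.25, with 0.129 for all genes at both times. At 72 h 44 of 45 were called higher, against 22.0% of all 11644 genes tested, with a median of 1.08 and -0.003 for all genes. The filter of 1 TPM could be met at 72 h by the lithium libraries alone. In most libraries of the group 1 TPM was reached by 43 members in control and by 45 with lithium. Members that fell short in control entered through the lithium libraries. Expressed as the ratio of mean TPM, lithium over control, the median member was 2.33 at 12 h, 5.37 at 24 h, 5.09 at 36 h and 2.23 at 72 h. In cTAL at 72 h no member was called higher, and the median ratio was 0.781. A higher level in a bulk library can come from more cells that express a gene or from more RNA per cell, and these cannot be told apart here.

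Leaving out single libraries left 32 to 38 calls at 12 h, and Pole, Pole2, Rfc3, Rfc4, Rpa1 and Rrm1 lost theirs in at least 1 such fit. On means of sets the count at 12 h fell from 38 to 0 members. In that fit 37 members had an unadjusted p under 0.05, the lowest adjusted p was 0.0682, for Mcm3 and Dscc1, and 0% of all genes were called higher. At 24 h 39 members were called on means of sets (1.82% of all genes), at 36 h 41 (4.10%) and at 72 h 41 (10.8%). The calls lost were those of Ccne1, Dut, E2f2, Gins2, Rrm2 and Tyms at 24 h, of Dut, E2f2, Gins2 and Tyms at 36 h, and of Dut, Gins2 and Tyms at 72 h. By role, all members of the helicase ring, the clamp and its loaders, strand synthesis, chromatin and the last 2 nuclear factors were called on means of sets at these 3 times. So were 8 of 9 licensing members at each time, 2, 3 and 3 of 5 for deoxynucleotide supply, and 1, 2 and 2 of 3 of the G1/S switch. The median over all genes tested moved to -0.007 at 24 h and -0.004 at 36 h with median-of-ratios scaling, which called 45 members at both times.

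**Figure D1:**
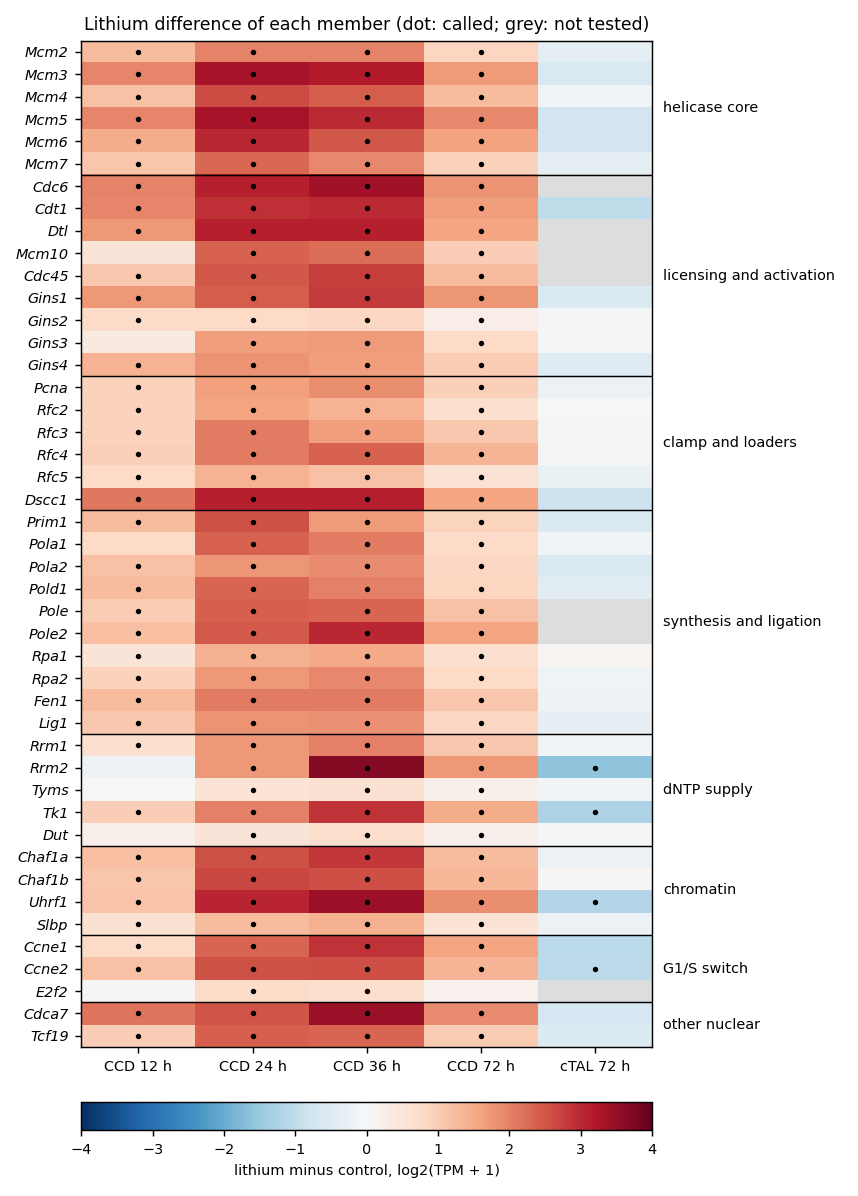
Log2 difference, lithium minus control, of the 45 members (rows, by role) in CCD at 12, 24, 36 and 72 h and in cTAL at 72 h (columns), on the log2(TPM + 1) scale. A dot marks an adjusted p under 0.05 and grey marks a member not tested. Between 38 and 45 members are called higher in each CCD column, and 4 are called lower in cTAL.

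The 6 subunits of the helicase ring were called higher at all 4 times in CCD. Mcm2, the highest of them by mean TPM over all 75 libraries, stood at 48.9, 51.7 and 49.6 TPM in the control and 99.4 and 147 TPM in the lithium libraries at 12 h. It stood at 42.8, 44.5 and 40.03 TPM in the control and 175, 168 and 170.4 TPM in the lithium libraries at 24 h. The levels were 44.9, 48.3 and 39.1 TPM in the control and 169, 193 and 168 TPM in the lithium libraries at 36 h. Each lithium library lay above every control library of its time, and the log2 difference was 1.26 (SE 0.13, adjusted p = 1.45e-05) at 12 h, 1.99 (SE 0.12, adjusted p = 6.39e-09) at 24 h and 1.98 (SE 0.12, adjusted p = 2.64e-09) at 36 h. At 72 h Mcm2 spanned 27.2 to 46.03 TPM (median 33.9) in the control and 46.3 to 102 TPM (median 62.5) in the lithium libraries, without overlap, with a difference of 0.87 (SE 0.09, adjusted p = 2.60e-10). For Mcm7 the values were 44.8, 47.4 and 52.04 TPM in the control and 87.6 and 123 TPM in the lithium libraries at 12 h. They were 30.6, 29.1 and 34.6 TPM in the control and 168, 148 and 156 TPM in the lithium libraries at 24 h, and 32.5, 45.6 and 37.8 TPM in the control and 145, 158 and 145 TPM in the lithium libraries at 36 h. Mcm7 also separated at 72 h, with 17.4 to 42.05 TPM (median 32.99) in the control and 45.9 to 94.5 TPM (median 62.4) in the lithium libraries. Its log2 differences were 1.10, 2.29, 1.94 and 0.92 over the 4 times (SE 0.14, 0.13, 0.13 and 0.09).

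Mcm3 and Mcm5 had larger differences than Mcm2 and Mcm7, which was not tested. Mcm3 stood at 12.6, 8.84 and 8.16 TPM in the control and 98.8, 109 and 107 TPM in the lithium libraries at 24 h. Its difference of 3.31 (SE 0.18, adjusted p = 3.04e-09) was the largest of all members at that time on the log2(TPM + 1) scale. By the ratio of mean TPM at 24 h Dtl was highest at 12.8, with Mcm3 at 10.7. At 12 h Mcm3 was already at 59.7 and 84.3 TPM with lithium and at 17.99, 16.8 and 17.4 TPM without. At 72 h Mcm3 overlapped, because 1 lithium library was at 12.6 TPM and the highest control was at 18.4 TPM. Mcm5 was 17.5, 17.04 and 21.7 TPM in the control and 61.3 and 93.1 TPM in the lithium libraries at 12 h. At 24 h Mcm5 reached 116, 105 and 113 TPM with lithium, against 12.7, 9.59 and 9.32 TPM in control. It was 11.9, 15.7 and 12.6 TPM in the control and 101, 132 and 103 TPM in the lithium libraries at 36 h. All of these groups were apart, and on the log2(TPM + 1) scale Mcm5 also had the largest difference of the members at 72 h, 1.92 (SE 0.12, adjusted p = 5.24e-17). It was 5.54 to 16.8 TPM (median 8.77) in the control and 24.5 to 56.6 TPM (median 38.96) in the lithium libraries. By the ratio of mean TPM at 72 h Cdca7 was highest at 5.68, with Mcm5 at 4.02. Mcm4 and Mcm6 differed by 2.61 and 3.03 at 24 h and by 1.28 and 1.60 at 72 h.

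Of the 9 licensing and helicase-activating members, 7 were called higher at 12 h and 9 at each later time. Gins4 and Gins1, subunits of GINS, had the highest mean TPM of the group over all 75 libraries, although in control CCD at 72 h Gins1 had a lower mean (4.89 TPM) than Gins2 (8.72 TPM) and Gins3 (7.04 TPM). Gins4 was 15.9, 15.1 and 19.3 TPM in the control and 43.4 and 48.2 TPM in the lithium libraries at 12 h. It was 14.1, 16.9 and 15.9 TPM in the control and 56.1, 63.3 and 49.8 TPM in the lithium libraries at 24 h, and 22.1, 22.6 and 16.5 TPM in the control and 63.02, 69.8 and 65.6 TPM in the lithium libraries at 36 h. No lithium library overlapped the controls, and this held at 72 h, with 13.5 to 27.4 TPM (median 18.2) in the control and 28.8 to 48.02 TPM (median 39.7) in the lithium libraries. The Gins4 difference was 1.40 (SE 0.14, adjusted p = 1.45e-05) at 12 h and 1.02 (SE 0.08, adjusted p = 4.34e-13) at 72 h. Gins1 was 6.20, 5.30 and 6.77 TPM in the control and 17.6 and 28.4 TPM in the lithium libraries at 12 h. Gins1 was 5.26, 3.27 and 5.39 TPM in the control and 22.6, 34.4 and 30.8 TPM in the lithium libraries at 24 h, and 4.10, 4.52 and 7.45 TPM in the control and 41.02, 45.8 and 39.1 TPM in the lithium libraries at 36 h. Gins1 was the lower expressed of the pair but differed by more, 1.73 (SE 0.25, adjusted p = 2.83e-04) at 12 h and 2.79 (SE 0.22, adjusted p = 8.43e-08) at 36 h, and its 1.16 to 11.6 TPM (median 5.08) in the control and 12.9 to 23.3 TPM (median 17.6) in the lithium libraries at 72 h did not overlap.

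The licensing factors Cdc6 and Cdt1 had log2 differences of 1.98 and 1.94 at 12 h and 3.36 and 2.99 at 36 h. Dtl, part of the ligase that marks Cdt1 for destruction, differed by 1.74 at 12 h and 3.12 at 24 h, and Cdc45 by 1.07 and 2.48. The 2 members of the group without a call at 12 h were Mcm10 and Gins3. Mcm10, a factor that activates the loaded helicase, was 1.13, 1.13 and 1.92 TPM in the control and 1.67 and 3.34 TPM in the lithium libraries at 12 h, where the groups overlapped (log2 difference 0.53 (SE 0.21, adjusted p = 0.137)). By 24 h it was at 9.98, 8.80 and 9.09 TPM with lithium against 1.00, 1.05 and 0.91 TPM, a difference of 2.37 (SE 0.19, adjusted p = 1.87e-07). Gins3 was 9.30, 10.4 and 8.59 TPM in the control and 11.03 and 13.9 TPM in the lithium libraries at 12 h, which did not overlap but gave a difference of only 0.37 (SE 0.16, adjusted p = 0.175), and at 24 h the difference was 1.66. From 24 h on Gins2 had the smallest difference within the complex (0.77 at 12 h, where it was called). Gins2 was 7.70, 7.21 and 9.23 TPM in the control and 17.4, 13.5 and 13.3 TPM in the lithium libraries at 24 h, and at 72 h 8.95 to 13.1 TPM (median 10.5) with lithium overlapped 5.99 to 12.98 TPM (median 8.14) in control, where 1 of 19 lithium libraries lay above the highest control.

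All 6 members for the sliding clamp and its loaders were called higher at every time in CCD. Pcna, the clamp itself, was 151, 134 and 142 TPM in the control and 241 and 299.7 TPM in the lithium libraries at 12 h. The clamp gene was 124, 105 and 109 TPM in the control and 343, 371 and 338 TPM in the lithium libraries at 24 h. At 36 h it stood at 437, 498 and 439.5 TPM with lithium and at 129, 114 and 138 TPM in control. At each of these times all lithium libraries were above all controls, with differences of 0.91 (SE 0.11, adjusted p = 4.68e-05), 1.63 (SE 0.10, adjusted p = 7.47e-09) and 1.84 (SE 0.10, adjusted p = 1.08e-09). At 72 h Pcna was 97.6 to 178 TPM (median 124) in the control and 213 to 274 TPM (median 249) in the lithium libraries, and its adjusted p of 8.87e-18 was the lowest of the members. Rfc2, a subunit of the clamp loader, was 44.4, 42.3 and 42.03 TPM in the control and 72.4 and 91.2 TPM in the lithium libraries at 12 h. Rfc2 was 33.5, 32.2 and 34.3 TPM in the control and 97.9, 106 and 100.3 TPM in the lithium libraries at 24 h, and 41.8, 46.1 and 37.6 TPM in the control and 109, 117 and 109 TPM in the lithium libraries at 36 h. These groups were apart too, with differences of 0.91, 1.57 and 1.40. At 72 h Rfc2 overlapped, with 30.9 to 52.2 TPM (median 36.4) in the control and 43.95 to 75.3 TPM (median 61.5) in the lithium libraries (difference 0.65 (SE 0.07, adjusted p = 8.07e-10)). Dscc1, part of an alternative clamp loader that acts in sister chromatid cohesion, had the largest difference of the group at each of the 4 times, 2.11, 3.12, 3.11 and 1.57, and Rfc5 the smallest, 0.79, 1.38, 1.17 and 0.59.

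Among the 10 members for strand synthesis (primase, polymerases, single-strand binding, flap removal and ligation) 9 were called higher at 12 h and 10 at each later time. Rpa1, the large subunit of the protein that coats single-stranded DNA, was 69.6, 70.7 and 82.3 TPM in the control and 88.9 and 129 TPM in the lithium libraries at 12 h. Rpa1 was 60.3, 55.5 and 54.1 TPM in the control and 154, 148 and 156 TPM in the lithium libraries at 24 h, and 55.2, 62.4 and 53.05 TPM in the control and 159.8, 171 and 161 TPM in the lithium libraries at 36 h. The lithium libraries were above the controls at each time, by 0.53 (SE 0.12, adjusted p = 0.0112) at 12 h and 1.51 (SE 0.11, adjusted p = 3.16e-08) at 36 h. At 72 h Rpa1 overlapped, with 23.6 to 70.9 TPM (median 52.5) in the control and 55.5 to 109.7 TPM (median 80.4) in the lithium libraries (difference 0.63 (SE 0.10, adjusted p = 1.02e-06)). Prim1, the catalytic subunit of primase, was 45.7, 38.9 and 48.6 TPM in the control and 93.6 and 126 TPM in the lithium libraries at 12 h. It was 21.9, 22.1 and 22.1 TPM in the control and 137, 139 and 127 TPM in the lithium libraries at 24 h, and 44.6, 41.8 and 51.6 TPM in the control and 149, 162 and 144 TPM in the lithium libraries at 36 h. The control level of Prim1 was lower at 24 h than at 12 or 36 h, and the difference was 1.28 at 12 h, 2.55 at 24 h and 1.71 at 36 h. At 72 h Prim1 was 32.3 to 61.6 TPM (median 38.7) in the control and 51.4 to 100.3 TPM (median 82.4) in the lithium libraries, with overlap and a difference of 0.91 (SE 0.08, adjusted p = 1.15e-11). Pola1, the catalytic subunit of polymerase alpha, was the member of this group without a call at 12 h. It was 8.05, 8.70 and 13.4 TPM in the control and 14.8 and 21.1 TPM in the lithium libraries at 12 h, which did not overlap (difference 0.79 (SE 0.29, adjusted p = 0.0972)), and by 24 h the difference was 2.36 (SE 0.26, adjusted p = 5.54e-06). The polymerase epsilon subunits Pole and Pole2 differed by 2.32 and 3.01 at 36 h, Pold1 of polymerase delta by 2.01, and Fen1 and Lig1, which process and join the lagging strand, by 2.07 and 1.84.

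The 5 genes for deoxynucleotide supply had the smallest share of calls of the role groups at 12 h, when 2 of 5 were called higher. Rrm1, the large subunit of ribonucleotide reductase, was 86.1, 75.03 and 96.9 TPM in the control and 113 and 160.1 TPM in the lithium libraries at 12 h. Rrm1 was 70.2, 70.1 and 58.99 TPM in the control and 238, 217 and 212 TPM in the lithium libraries at 24 h, and 57.6, 69.4 and 56.4 TPM in the control and 242, 254 and 248 TPM in the lithium libraries at 36 h. Lithium and control did not overlap, and the Rrm1 difference was 0.65 (SE 0.14, adjusted p = 0.00648) at 12 h and 2.01 (SE 0.12, adjusted p = 5.25e-09) at 36 h. At 72 h Rrm1 was 24.7 to 67.1 TPM (median 57.97) in the control and 71.8 to 157 TPM (median 121) in the lithium libraries, also apart, with 1.08 (SE 0.10, adjusted p = 2.24e-11). Tk1, thymidine kinase, differed by 0.99 (SE 0.14, adjusted p = 2.46e-04) at 12 h. It reached 197, 233 and 209 TPM with lithium at 36 h, against 26.2, 24.1 and 33.01 TPM, and stayed apart at 72 h with 18.3 to 51.5 TPM (median 33.5) in the control and 72.8 to 143 TPM (median 98.6) in the lithium libraries.

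Rrm2, the small subunit of ribonucleotide reductase, whose protein is limited to S and G2 phase, was first called at 24 h. It was 17.7, 18.7 and 23.3 TPM in the control and 14.1 and 20.8 TPM in the lithium libraries at 12 h. Those groups overlapped, with a log2 difference of -0.20 (SE 0.19, adjusted p = 0.586), the lowest of the members. At 24 h Rrm2 was 22.1, 18.2 and 16.6 TPM in control and 81.9, 64.4 and 52.8 TPM with lithium. At 36 h it was 6.65, 8.67 and 7.41 TPM in control and 109, 102 and 110.4 TPM with lithium. The groups were apart at both times, and the difference went from 1.74 (SE 0.17, adjusted p = 1.47e-06) to 3.66 (SE 0.17, adjusted p = 3.70e-10), the largest of the members at 36 h on the log2(TPM + 1) scale. By the ratio of mean TPM at 36 h Cdca7 was highest at 17.2, with Rrm2 at 14.1. At 72 h Rrm2 was 7.84 to 26.2 TPM (median 13.3) in the control and 30.5 to 71.1 TPM (median 50.7) in the lithium libraries, without overlap, and differed by 1.73 (SE 0.13, adjusted p = 3.62e-14).

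Tyms and Dut, thymidylate synthase and the enzyme that removes dUTP, were high in control CCD. With E2f2 they had the 3 smallest differences of the members at 24, 36 and 72 h. Tyms was 89.00, 81.8 and 111 TPM in the control and 86.7 and 101 TPM in the lithium libraries at 12 h. These values overlapped, with a difference of 0.01 (SE 0.12, adjusted p = 0.985). At 24 h Tyms was 78.4, 86.1 and 77.3 TPM in control and 121, 123 and 113 TPM with lithium, and at 36 h 73.4, 86.9 and 83.4 and 125, 127 and 118 TPM. Lithium was above control in every library of both times, by 0.56 (SE 0.10, adjusted p = 8.35e-04) and 0.60 (SE 0.10, adjusted p = 2.95e-04), the latter the smallest of the members at 36 h. At 72 h Tyms was 66.6 to 104 TPM (median 83.5) in the control and 74.02 to 121 TPM (median 97.6) in the lithium libraries, largely overlapping, with 6 of 19 lithium libraries above the highest control (0.19 (SE 0.06, adjusted p = 0.0164)). Dut was 75.95, 67.00 and 67.01 TPM in the control and 81.5 and 79.6 TPM in the lithium libraries at 12 h, a difference of 0.20 (SE 0.10, adjusted p = 0.21) with no overlap. At 24 h Dut had the smallest difference of the members, 0.52 (SE 0.09, adjusted p = 3.10e-04), with 77.7, 73.2 and 84.2 TPM in control and 117, 120.1 and 102 TPM with lithium. At 72 h 2 of 19 lithium libraries were above the highest control (0.19 (SE 0.07, adjusted p = 0.021)), and both Tyms and Dut lost that call when single sets of libraries were left out.

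The 4 members that couple chromatin to replication were called higher at every time. Slbp, which binds the stem loop of replication-dependent histone messages, was 80.8, 73.2 and 81.01 TPM in the control and 114 and 126 TPM in the lithium libraries at 12 h. Slbp was 81.2, 69.9 and 75.2 TPM in the control and 187, 192 and 168 TPM in the lithium libraries at 24 h, and 71.4, 74.8 and 77.02 TPM in the control and 209, 209 and 179 TPM in the lithium libraries at 36 h. No libraries overlapped, and the difference was 0.61 (SE 0.09, adjusted p = 4.67e-04), 1.26 (SE 0.08, adjusted p = 2.62e-08) and 1.41 (SE 0.08, adjusted p = 3.78e-09). At 72 h Slbp was 77.6 to 121 TPM (median 88.7) in the control and 97.4 to 160.4 TPM (median 139) in the lithium libraries, with overlap (0.54 (SE 0.06, adjusted p = 6.55e-10)). Uhrf1, which recognises hemimethylated DNA behind the fork and recruits the maintenance methyltransferase, was 9.12, 8.48 and 12.3 TPM in the control and 19.3 and 27.4 TPM in the lithium libraries at 12 h. Uhrf1 was 8.58, 7.15 and 10.5 TPM in the control and 84.5, 79.1 and 75.1 TPM in the lithium libraries at 24 h, and 6.44, 7.18 and 6.22 TPM in the control and 72.1, 93.8 and 74.98 TPM in the lithium libraries at 36 h. It was low in control and far apart from lithium, by 1.14 (SE 0.18, adjusted p = 6.07e-04), 3.06 (SE 0.16, adjusted p = 3.04e-09) and 3.41 (SE 0.16, adjusted p = 4.53e-10). At 72 h Uhrf1 was 1.91 to 12.2 TPM (median 5.11) in the control and 11.2 to 37.4 TPM (median 22.6) in the lithium libraries, where the lowest lithium library fell below the highest control (1.86 (SE 0.16, adjusted p = 1.46e-12)). Chaf1a and Chaf1b, subunits of the factor that deposits histones at the fork, differed by 1.21 and 1.10 at 12 h and by 2.84 and 2.59 at 36 h.

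The G1/S switch was represented by cyclin E and E2f2. Ccne1 was 9.74, 11.2 and 11.8 TPM in the control and 17.6 and 20.7 TPM in the lithium libraries at 12 h. It was 7.04, 6.53 and 6.42 TPM in the control and 36.7, 39.2 and 35.4 TPM in the lithium libraries at 24 h, and 5.80, 3.97 and 5.51 TPM in the control and 44.4, 44.8 and 41.2 TPM in the lithium libraries at 36 h. The groups were apart at all 3 times, with differences of 0.76 (SE 0.14, adjusted p = 0.00205), 2.31 (SE 0.12, adjusted p = 3.27e-09) and 2.88 (SE 0.12, adjusted p = 2.20e-10). At 72 h Ccne1 was 0.02 to 11.5 TPM (median 5.65) in the control and 11.00 to 22.8 TPM (median 17.8) in the lithium libraries, overlapping slightly (1.58 (SE 0.20, adjusted p = 2.43e-08)). Ccne2 was 4.39, 3.85 and 5.20 TPM in the control and 11.9 and 10.7 TPM in the lithium libraries at 12 h. Ccne2 was 3.11, 2.78 and 2.54 TPM in the control and 21.6, 22.9 and 19.4 TPM in the lithium libraries at 24 h, and 2.94, 3.60 and 3.22 TPM in the control and 24.7, 29.4 and 20.1 TPM in the lithium libraries at 36 h. These were apart as well, by 1.17, 2.55 and 2.58, and at 72 h Ccne2 was 0.69 to 7.78 TPM (median 2.49) in the control and 5.81 to 15.5 TPM (median 8.98) in the lithium libraries, with overlap (1.37 (SE 0.17, adjusted p = 1.82e-08)).

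E2f2 encodes an activating E2F factor. It was 3.38, 4.40 and 4.18 TPM in the control and 3.04 and 5.59 TPM in the lithium libraries at 12 h, with overlap and a difference of 0.06 (SE 0.21, adjusted p = 0.919). It was 5.43, 4.84 and 4.23 TPM in the control and 10.9, 8.08 and 7.08 TPM in the lithium libraries at 24 h, and 5.79, 5.49 and 4.88 TPM in the control and 8.91, 9.72 and 8.85 TPM in the lithium libraries at 36 h. At these 2 times no libraries overlapped, by 0.72 (SE 0.19, adjusted p = 0.0103) and 0.67 (SE 0.19, adjusted p = 0.0113). At 72 h E2f2 was 1.42 to 5.78 TPM (median 3.14) in the control and 0.97 to 7.37 TPM (median 3.65) in the lithium libraries and was the member without a call (0.18 (SE 0.15, adjusted p = 0.367)). Leaving out single libraries also ended its call at 24 h.

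The remaining 2 members are nuclear factors that are induced at G1/S. Tcf19 was 37.6, 38.2 and 40.9 TPM in the control and 74.9 and 79.9 TPM in the lithium libraries at 12 h. Tcf19 was 25.01, 24.5 and 24.3 TPM in the control and 141, 129 and 126 TPM in the lithium libraries at 24 h, and 29.1, 34.6 and 30.4 TPM in the control and 164, 161 and 154 TPM in the lithium libraries at 36 h. The libraries within each group lay close together and the groups were apart, which gave Tcf19 the lowest adjusted p of the members at 24 h and 36 h (2.38 (SE 0.08, adjusted p = 1.09e-11) and 2.31 (SE 0.08, adjusted p = 1.65e-11)). At 72 h Tcf19 was 27.1 to 42.7 TPM (median 35.9) in the control and 51.9 to 105 TPM (median 69.5) in the lithium libraries, again apart. Cdca7, a zinc-finger protein that acts with a chromatin remodeller and is an established MYC and E2F target, was 2.94, 2.57 and 2.79 TPM in the control and 12.4 and 19.7 TPM in the lithium libraries at 12 h. It was 2.61, 1.06 and 2.02 TPM in the control and 19.1, 13.8 and 13.5 TPM in the lithium libraries at 24 h, and 1.63, 1.81 and 1.23 TPM in the control and 29.9, 27.9 and 22.7 TPM in the lithium libraries at 36 h. Its difference of 2.15 (SE 0.24, adjusted p = 2.86e-05) was the largest of the members at 12 h, and its ratio of mean TPM reached 17.2 at 36 h, the highest of the members. At 72 h Cdca7 was 0.05 to 2.20 TPM (median 1.55) in the control and 3.45 to 12.1 TPM (median 7.57) in the lithium libraries, without overlap (1.89 (SE 0.16, adjusted p = 9.23e-13)).

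**Figure D2:**
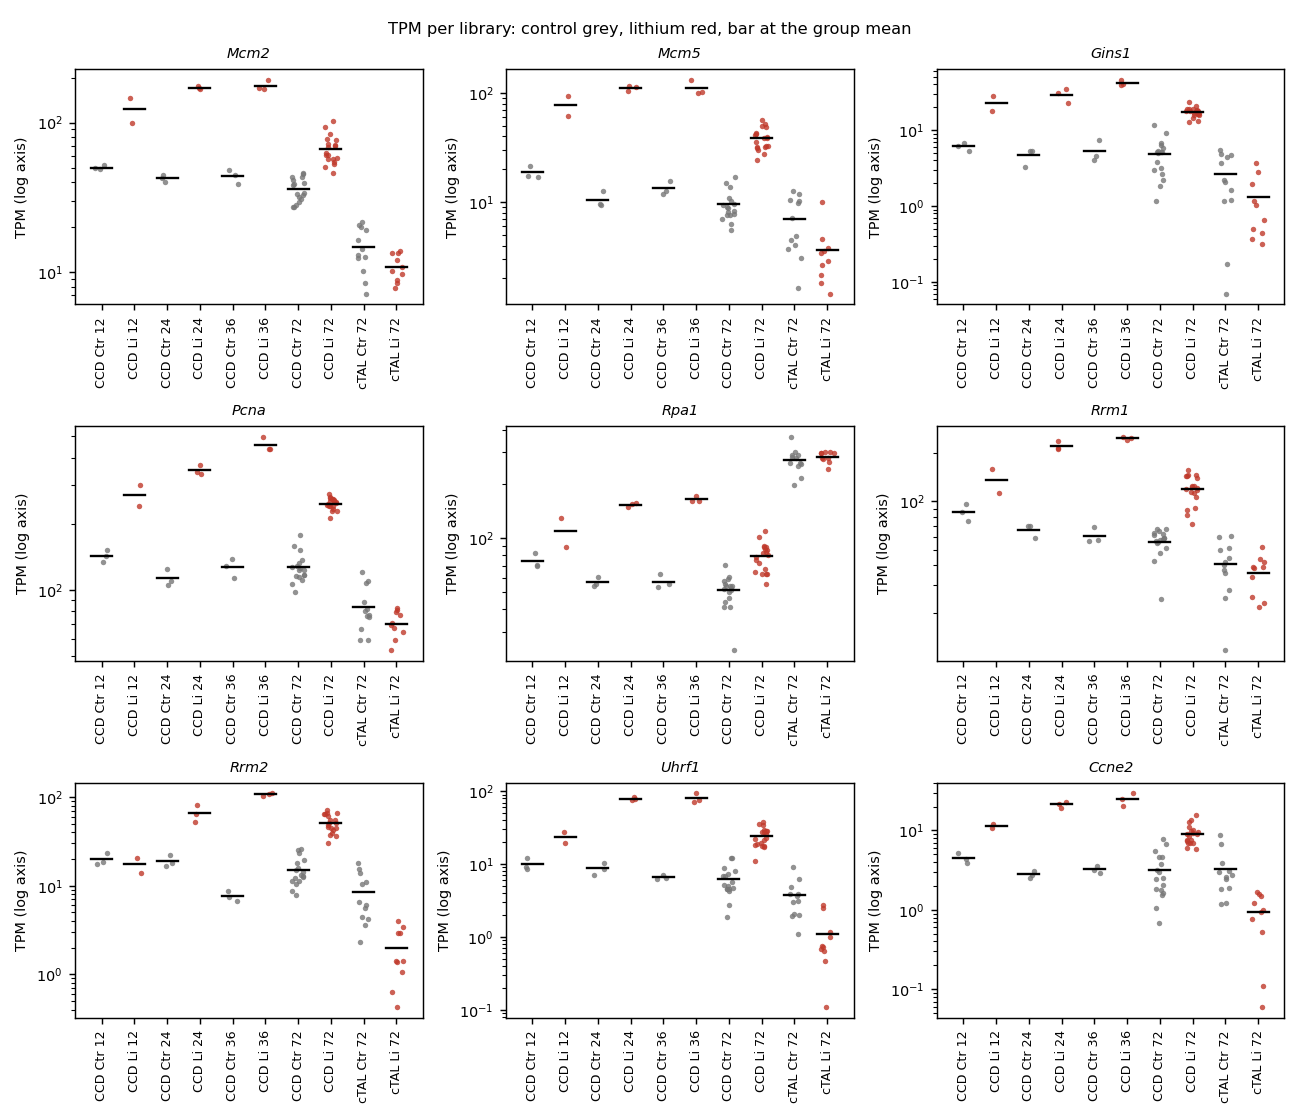
TPM per library (log axis, 1 point per library, bar at the group mean) of 9 members in the 10 groups, control and lithium side by side by segment and time. In CCD at 24 and 36 h every lithium point lies above every control point of the same time in each of the 9 panels, while in cTAL the groups overlap.

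Counted over all members, lithium was above control in every library in 41 of 45 members at 12 h, the exceptions being Mcm10, Rrm2, Tyms and E2f2, where 23.2% of all genes separated upwards. At 24 h and 36 h the groups of all 45 members were apart, against 33.9% and 34.6% of all genes. At 72 h, with 17 control and 19 lithium libraries, 17 of 45 members were apart, against 1.71% of all genes. These were Cdc6, Cdca7, Cdt1, Gins1, Gins4, Mcm2, Mcm5, Mcm6, Mcm7, Pcna, Rfc3, Rfc4, Rpa2, Rrm1, Rrm2, Tcf19 and Tk1.

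The call first appeared at 12 h in 38 members and at 24 h in 7, namely Mcm10, Gins3, Pola1, Rrm2, Tyms, Dut and E2f2. The mean level with lithium peaked at 36 h in 41 members and at 24 h in 4, while the ratio to control peaked at 24 h in 22 and at 36 h in 23. The change of the lithium effect between times was tested as such. From 12 to 24 h the effect grew in 12 members, against 0.567% of all genes tested: Mcm6, Mcm7, Mcm10, Cdc45, Pcna, Rfc3, Rfc4, Prim1, Rpa2, Rrm2, Chaf1b and Tcf19. The median over the 45 members was 1.13, against 0.076 for all genes, from 0.03 for Gins2 to 1.94 for Rrm2 (SE 0.44, adjusted p = 0.0169). This count rests on single libraries: it was 1 without lithium 12 h replicate 1, 4 and 2 without control 12 h replicates 1 and 3, 5 and 4 without control 24 h replicates 2 and 3, and 2, 6 and 7 without lithium 24 h replicates 1, 2 and 3. Limma on means of sets called 0 (0.0425% of all genes), with 30 members at an unadjusted p under 0.05.

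From 24 to 36 h the effect grew further in Rrm2 alone of the members, by 1.92 (SE 0.42, adjusted p = 0.00543), against 0.773% of all genes. Both foods moved: the mean Rrm2 level fell from 18.97 to 7.58 TPM in control and rose from 66.4 to 106.9 TPM with lithium. Differences of the other members ran from -0.85 for Prim1 to 0.91 for Cdca7, none called. From 36 to 72 h the effect fell in 30 members, against 3.02% of all genes, and 45 of 45 differences were negative, with a median of -1.11 and -0.118 for all genes. It fell most in Rrm2, by 1.93 on the log2 scale, and least in Tyms, by 0.41. Leaving out single libraries of 36 h left 21 to 30 calls of a fall, and 20 members were called in every such fit. The mean lithium level of all 45 members was lower at 72 h than at 24 h and at 36 h. Limma on means of sets called 0 members in either comparison (0.0213% of all genes for the growth from 24 to 36 h and 0.0142% for the fall after it), with 1 and 41 at an unadjusted p under 0.05. In a moderated F test over the 4 control times 8 of 45 members were called (Mcm5, Mcm6, Rfc3, Prim1, Rrm1, Rrm2, Slbp and Tcf19), a share near the 13.8% of all genes, and 36 members had their highest control mean at 12 h. The count of members called was 0 on means of sets (0.113% of all genes), with 10 members at an unadjusted p under 0.05. It was 14 with median-of-ratios scaling and 16 with quantile normalization. The shares of all genes in those 2 fits are not given here. The mean log2(TPM + 1) over the members was 4.06 at 12 h and 3.66 at 24 h in control CCD, and 5.13 and 5.80 with lithium.

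**Figure D3:**
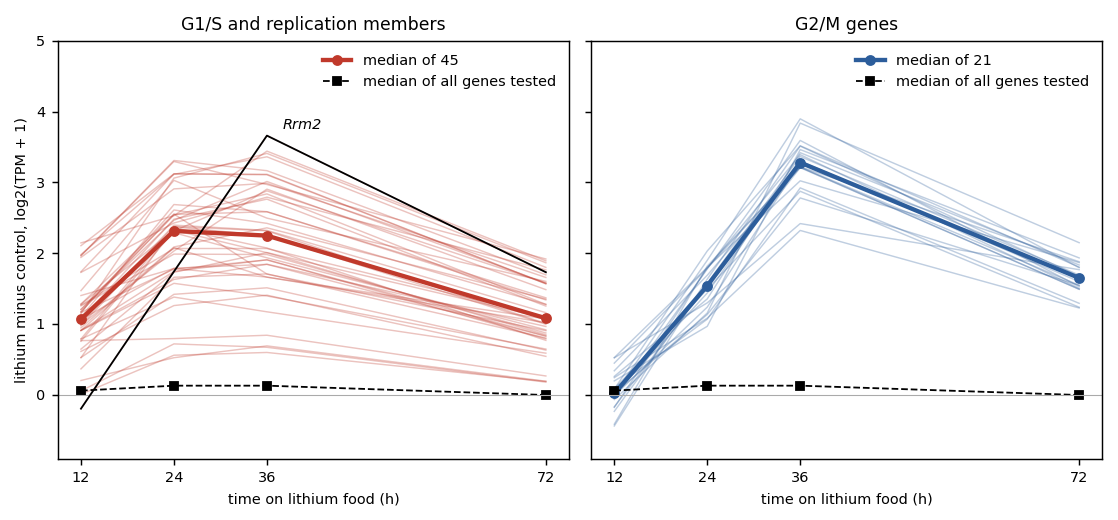
Log2 difference, lithium minus control, in CCD against time (12, 24, 36 and 72 h) for the 45 members (left, Rrm2 in black) and the 21 G2/M genes (right), each line 1 gene, with the median of all genes. The members have medians of 1.07, 2.31, 2.25 and 1.08, and the G2/M genes 0.02, 1.54, 3.28 and 1.65.

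Genes that act after S phase were not called at 12 h, when 38 members were. Of 21 G2/M genes, chosen by name, limma called 0 at 12 h (1 at an unadjusted p under 0.05), with a median log2 difference of 0.02 and a range from -0.44 for Nusap1 to 0.53 for Cdk1, the mitotic kinase. At 24 h all 21 were called higher with a median of 1.54, at 36 h all 21 with a median of 3.28, and at 72 h all 21 with a median of 1.65. Aurkb, a kinase of chromosome segregation, differed by 3.90 at 36 h. Between 12 and 24 h the effect grew in 3 of these genes (Aurkb, Ccna2 and Nusap1), and between 24 and 36 h in 9 of 21, where 1 of 45 replication members grew. Between 36 and 72 h it fell in 19 of 21. Of all genes, 18.3%, 23.7% and 22.0% were called higher at 24, 36 and 72 h, and 0.567%, 0.773% and 3.02% in the 3 comparisons of times. On means of sets limma called 3 of the 21 at 24 h, 21 at 36 h and 21 at 72 h, where 20, 21 and 21 had an unadjusted p under 0.05. In the comparisons of times it then called 0, with 14, 19 and 20 at an unadjusted p under 0.05. The difference between these lists in timing was not tested.

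Other replication genes were called higher as well. Of 28 tested, 12 were called higher at 12 h, 21 at 24 h and 22 at 36 h, with 0 lower, and of 27 tested at 72 h 17 were higher and 1 was lower (Mcm9, -0.44). The shares of all genes called higher were 7.10%, 18.3%, 23.7% and 22.0%. On means of sets limma called 0 of them higher at 12 h (12 at an unadjusted p under 0.05). At the later times in turn it called 11, 17 and 16, and Mcm9 was not called. Pold2, the small subunit of polymerase delta, differed by 0.86 at 12 h, the fork protection factor Timeless by 1.59, Gmnn, the inhibitor of Cdt1, by 0.75 and Orc6 of the origin recognition complex by 1.08. The origin recognition gene Orc3 gave the lowest value at 12, 24 and 36 h, between -0.04 and 0.03. Among G1/S regulators and genes of the E2F network outside the members, 8, 18 and 20 of 26 were called higher at the early times in turn, and 15 of 25 at 72 h. On means of sets the counts were 0 (8 at an unadjusted p under 0.05 by limma), 12, 14 and 14. The 12 h calls included Cks1b (0.91), a cyclin-dependent kinase subunit, and the histone chaperones Nasp (0.73) and Asf1b (1.11). The retinoblastoma relative Rbl2 was called lower at 36 h (-0.35) and 72 h (-0.58), and at 72 h Tfdp2 (-0.69) and the p53-inducible reductase subunit Rrm2b (-0.42) were lower too. On means of sets limma called 0 of these lower at 36 h (0 at an unadjusted p under 0.05) and 2 of the 3 at 72 h. The shares of all genes called lower at 36 and 72 h are not given here, so the lower calls have no background beside them.

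At 72 h the shift was present in each set of libraries. The mean log2(TPM + 1) over the 45 members, averaged by set, was 3.57 to 3.74 in the 4 control sets and 4.64 to 4.98 in the 4 lithium sets of CCD. The lithium and control sets did not overlap. In cTAL it was 2.71 to 3.39 in the control and 2.53 to 2.95 in the lithium sets, which overlap. Control cTAL set 1, at 3.34, is the single library control cTAL 1, which stood apart, and it weighs as much as any other set in the fits on means of sets.

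**Figure D4:**
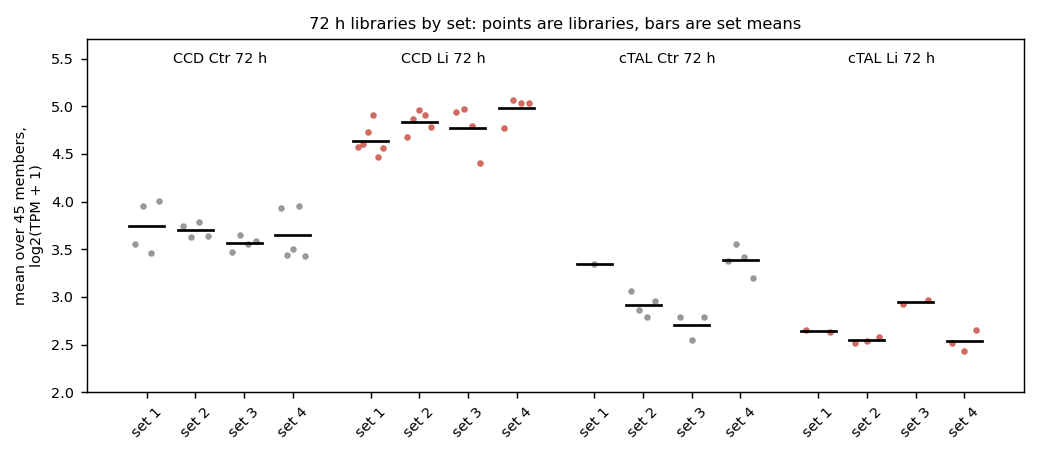
Mean log2(TPM + 1) over the 45 members in each library at 72 h (1 point per library, bar at the set mean), by set of libraries, for control and lithium in CCD and cTAL. The CCD lithium sets average 4.64 to 4.98 and the control sets 3.57 to 3.74, while the cTAL sets overlap.

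Libraries of a group also differed among themselves in a shared way. In the 19 lithium CCD libraries at 72 h the correlation between pairs of members had a median of r = 0.411. A member's correlation with the mean of the others had a median of 0.703, with 0.467 for all other genes, and ran from -0.488 for Dut to 0.94 for Rpa1. The mean over the members was correlated with the mean of the G2/M genes at r = 0.837. In the 17 control CCD libraries the median pair was at r = 0.245, a member's median correlation with the rest was 0.507 (0.1 for all other genes), and the correlation with the G2/M mean was 0.07. In cTAL the correlation with the G2/M mean was 0.662 in the 12 control and 0.842 in the 10 lithium libraries, so a high value was not limited to lithium. These values share the library and its composition and are given as a description.

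In cTAL at 72 h lithium was not accompanied by higher replication genes. Of the 45 members 38 passed the filter of 1 TPM, and Cdc6, Dtl, Mcm10, Cdc45, Pole, Pole2 and E2f2 were not tested. Limma called 4 members lower and 0 higher (0 at an unadjusted p under 0.05), against 0.590% and 0.111% of all 11702 genes tested. The 4 were Rrm2, Tk1, Uhrf1 and Ccne2. The median log2 difference of the tested members was -0.34, with -0.075 for all genes, and 36 of 38 values were negative, among them Rfc2 at -0.002, which turned positive with 2 other scalings. No member had groups apart, against 0.0171% of all genes apart downwards. The fit on means of sets called 0 members and 0% of all genes lower (9 members at an unadjusted p under 0.05), and the lowest adjusted p was 0.956. Without the libraries that stood apart, a choice made after seeing the data, 2 were called. Leaving out single sets gave 8 calls without control set 3, 7 without lithium set 3, 2 without lithium set 1 or 4, and 0 without control set 4 or lithium set 2 (10 and 14 at an unadjusted p under 0.05).

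Rrm2 in cTAL was 2.34 to 17.9 TPM (median 6.33) in the control and 0.43 to 4.02 TPM (median 1.41) in the lithium libraries. Tk1 was 10.3 to 47.5 TPM (median 25.9) in the control and 4.92 to 17.99 TPM (median 9.87) in the lithium libraries. Uhrf1 was 1.11 to 9.13 TPM (median 3.41) in the control and 0.11 to 2.79 TPM (median 0.74) in the lithium libraries. In these 3 genes 6, 6 and 7 of the 10 lithium libraries lay below the lowest control and the others overlapped, with differences of -1.59 (SE 0.29, adjusted p = 0.0103), -1.24 (SE 0.23, adjusted p = 0.0105) and -1.16 (SE 0.25, adjusted p = 0.0214). Ccne2 was 1.19 to 8.76 TPM (median 2.68) in the control and 0.06 to 1.66 TPM (median 0.97) in the lithium libraries, a difference of -1.06 (SE 0.24, adjusted p = 0.0359). Ccne1 was 0.88 to 9.49 TPM (median 3.75) in the control and 0 to 3.07 TPM (median 1.11) in the lithium libraries, with 1 lithium library listed at 0, and its difference of -1.09 (SE 0.29, adjusted p = 0.0832) was not called. The cyclin E genes had like values, on either side of the threshold.

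The other members described by library were not called in cTAL. Mcm2 was 7.17 to 21.5 TPM (median 13.7) in the control and 7.82 to 13.7 TPM (median 10.5) in the lithium libraries, and Mcm7 was 20.1 to 34.3 TPM (median 22.5) in the control and 12.8 to 29.00 TPM (median 17.8) in the lithium libraries. Gins4 was 1.54 to 25.5 TPM (median 9.18) in the control and 2.59 to 12.3 TPM (median 5.61) in the lithium libraries, and Gins1 was 0.07 to 5.54 TPM (median 2.14) in the control and 0.32 to 3.73 TPM (median 0.84) in the lithium libraries. Pcna was 58.9 to 121 TPM (median 78.7) in the control and 53.2 to 82.4 TPM (median 69.97) in the lithium libraries. In Mcm7 7 of the 10 lithium libraries lay below the lowest control, in Pcna 1 and in Mcm2, Gins4 and Gins1 0. The groups of all 5 overlapped, with differences of -0.36, -0.35, -0.52, -0.58 and -0.22 and adjusted p between 0.242 and 0.455. Rfc2 was 14.8 to 26.98 TPM (median 20.6) in the control and 12.7 to 27.2 TPM (median 21.9) in the lithium libraries. Prim1 was 20.3 to 38.7 TPM (median 27.2) in the control and 5.09 to 32.5 TPM (median 21.5) in the lithium libraries, and Rrm1 was 11.7 to 60.8 TPM (median 40.8) in the control and 21.8 to 51.6 TPM (median 38.7) in the lithium libraries. Tyms was 36.98 to 63.8 TPM (median 47.9) in the control and 34.4 to 52.7 TPM (median 44.4) in the lithium libraries, Slbp was 43.03 to 85.5 TPM (median 60.9) in the control and 43.2 to 61.7 TPM (median 55.98) in the lithium libraries, Tcf19 was 9.19 to 31.7 TPM (median 20.9) in the control and 10.7 to 18.8 TPM (median 14.5) in the lithium libraries, and Cdca7 was 0.16 to 13.9 TPM (median 2.16) in the control and 0 to 2.55 TPM (median 1.43) in the lithium libraries with 2 lithium libraries listed at 0. In each of these the ranges overlapped and none was called. Rpa1 and Chaf1b were the members with positive differences, 0.08 and 0.06, neither called. The G2/M genes were lower in cTAL in 8 of 17 tested, with a median of -1.18 and Ccna2 at -1.97, and of the G1/S regulators outside the members Asf1b was the 1 called, at -1.12, of 22 tested. Of all genes 0.590% were called lower, and on means of sets limma called 0 of the G2/M genes and not Asf1b, with 14 and 2 genes of the 2 lists lower at an unadjusted p under 0.05. Of the other replication genes 0 of 22 were called (1 higher and 3 lower at an unadjusted p under 0.05).

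**Figure D5:**
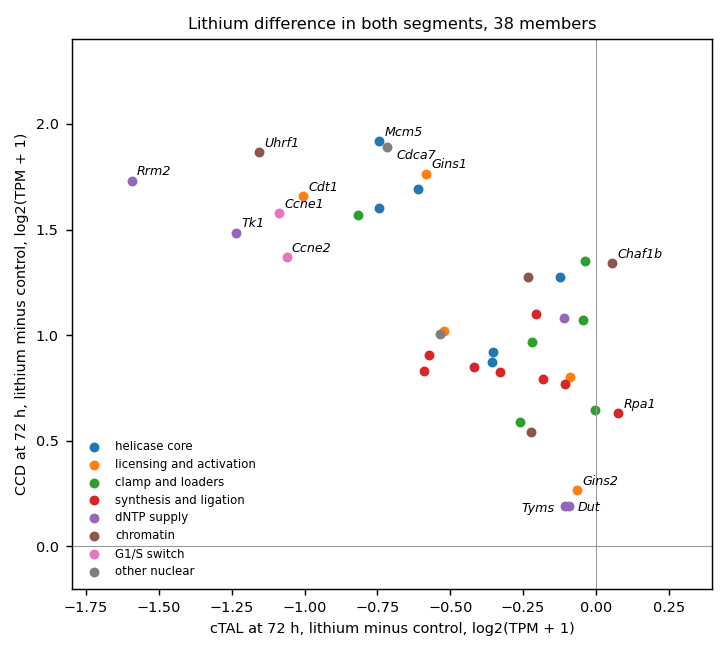
Log2 difference, lithium minus control at 72 h, in CCD (vertical axis) against cTAL (horizontal axis) for the 38 members tested in both segments, coloured by role, on the log2(TPM + 1) scale. All points lie above 0 on the CCD axis, and 36 of 38 lie left of 0 on the cTAL axis, of which Rfc2, at -0.002, turned positive with 2 other scalings.

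The difference between the segments in their lithium effect was tested itself. With the 72 h groups of both segments fitted together, the effect was larger in CCD than in cTAL in 41 of 45 members, against 11.8% of all 13083 genes tested. Of the 38 members that passed the filter in cTAL it was 35. The other 7 entered through CCD, where they are higher, and 6 of them (Cdc6, Dtl, Mcm10, Cdc45, Pole and Pole2) are among the 41. The exceptions were Gins2, Gins3, Dut and E2f2, and Pola1 and Tyms lost their calls when single sets were left out. The median difference of effects was 1.40, with 0.081 for all genes. It was largest in Rrm2 at 3.33 (SE 0.29, adjusted p = 4.70e-14), followed by Uhrf1 at 3.02 and Tk1 at 2.72. On means of sets 33 members were called, against 3.34% of all genes, and 27 of the 38. With sets of the same pattern paired across the segments, a choice made after seeing the data, 29 were called, against 3.39% of all genes, and 26 of the 38. All 21 G2/M genes were called in the same direction, with a median of 2.74. Of these 21 genes 17 passed the filter in cTAL, and the others entered through CCD.

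Control levels of the members also differed between the segments. In control libraries at 72 h 37 members were higher in CCD and 2 lower, against 46.9% and 20.3% of all genes, with a median of 0.62 and 0.249 for all genes. Of the 37, 5 members (Cdc45, Cdc6, Dtl, E2f2 and Pole2) did not pass the filter in cTAL and entered through CCD. Of the 38 that passed it 32 were higher. With means of sets 24 were higher, against 32.3% of all genes, with paired sets 28, against 35.5%, and with median-of-ratios scaling, which moves the median of all genes to 0.006, 27 were higher. Mcm2 was higher in CCD by 1.28 (SE 0.12, adjusted p = 3.53e-14) and Tyms by 0.85 (SE 0.07, adjusted p = 8.69e-16). Rpa1 went the other way, at 198 to 366 TPM (median 271) in control cTAL and 23.6 to 70.9 TPM (median 52.5) in control CCD, with a CCD minus cTAL difference of -2.40 (SE 0.10, adjusted p = 1.43e-31). Cdca7 was also called lower in CCD (-0.59 (SE 0.24, adjusted p = 0.0273)), but its call was lost when single sets were left out, as were those of Dscc1, Dtl, Lig1, Mcm5, Pole2, Rrm1, Tk1 and Uhrf1, which were higher. Ccne1, Ccne2, Cdt1, Mcm10, Pole and Rfc3 were not called between the segments.

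Markers of other cell types were read beside these results, and their part in them was not tested. Summed over 12 principal cell markers, the median level in CCD was 15737 TPM in control and 11010 TPM in lithium libraries at 72 h, with 10 of 12 markers called lower, and at 36 h it was 21631 and 10024 TPM, again with 10 called lower. At 12 h it was 20201 and 15776 TPM, with 4 called lower and 2 higher. At 24 h, when all 45 members were called, it was 18720 and 18104 TPM, with 3 called lower and 1 higher. Summed over 12 intercalated cell markers it was 14750 and 11190 TPM at 24 h, with 4 called lower, and 13531 and 9162 TPM at 72 h, with 12 called lower. The 9 thick ascending limb markers summed to 1725 to 2086 TPM in control and 650 to 1072 TPM in lithium CCD at 12 h. At 36 h the sums were 1588 to 2051 and 742 to 826 TPM, and at 24 and 72 h they overlapped. Of these markers 2 were called lower at 12 h, 2 higher at 24 h, 4 lower at 36 h, and 1 higher and 2 lower at 72 h. Kcnj1 is both in this list and in the principal cell list. Proximal tubule markers summed to 589 to 1555 TPM in control and 169 to 268 TPM in lithium CCD at 24 h, with 5 of the 12 tested called lower, and none was called at 12 h. The mitochondrial share of TPM was 9.96 to 11.79% in control and 7.22 to 7.56% in lithium CCD at 24 h, and 8.48 to 11.07% and 7.74 to 8.11% at 36 h, without overlap at either time. At 72 h it was 7.23 to 12.87% and 4.77 to 10.54%, with overlap. Summed over 19 immune markers the range was 216 to 448 TPM in control and 97.7 to 203 TPM in lithium CCD at 12 h, and 39.0 to 688 TPM and 189 to 1201 TPM at 72 h. In cTAL the immune sum was 2249 to 6828 TPM in control and 1799 to 5903 TPM in lithium libraries. Summed over 11 endothelial markers it was 28.1 to 269.6 TPM in control and 11.7 to 100 TPM in lithium CCD at 72 h, and 259.5 to 746 TPM and 136 to 921 TPM in cTAL, with 9 of 9 tested called lower in CCD at 72 h. On means of sets limma called 6 principal cell markers lower at 36 h and 6 at 72 h. In that fit 7 intercalated cell and 4 endothelial markers were called lower at 72 h, and no marker was called at 12 or 24 h. Over libraries 3.30% of all genes were called lower at 12 h, and the shares at the later times are not given here. The defining markers Cd3g, in lithium CCD at 12 h, and Cldn5, in several groups, were at 0 in all libraries of the group. Fibroblast and smooth muscle markers summed to at most 36.9 TPM in any CCD library.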

How the data were processed

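Polyadenylated RNA of hand-dissected tubules was turned into cDNA with a SMARTer V4 kit and 15 PCR cycles, and libraries were made with Nextera XT from 1 ng, per the labels' protocols. The authors deposited TPM per gene and library in 1 table, and per the submitters' processing notes STAR 2.5.2b, RSEM 1.2.31 and the build Rnor_6.0 were used. TPM keeps no depth, so no interval from counting error was computed, and because strand is lost, reads of a gene and of an overlapping antisense gene are counted alike.

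From these values log2(TPM + 1) was fitted with limma 3.58.1 (R 4.3.3) with a mean-variance trend and Benjamini-Hochberg adjustment over all genes tested. Tests were two-sided. The filter asked for 1 TPM or more in a number of libraries equal to the smallest group. The groups at 72 h were fitted by segment, the 6 early CCD groups in 1 fit, the 4 groups at 72 h in 1 fit for differences between segments, and the 8 CCD groups in 1 fit for differences between times. Tables, promoter searches and figures used Python 3.11.15, numpy 2.4.6, pandas 2.3.3 and matplotlib 3.10.9. Promoters came from a RefSeq table of GRCr8.

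Alternatives were a pseudocount of 0.1, no filter, a minimum of 5 TPM, median-of-ratios scaling, quantile normalization, no trend, means of sets, a replicate block, single libraries or sets left out and, at 12, 24 and 36 h, the groups of that time only. Leaving out the 5 libraries whose median correlation with their group was under 0.95, and pairing the means of sets across segments by their pattern, were added after seeing the data. The members and all gene lists were chosen with earlier results of these data known, and the lists support nothing on their own. Values by library are given for the 2 members of highest mean TPM in each role group, for members against the trend and for the extremes of each comparison. Of the other lists up to 4 members of smallest p per comparison were eligible to be named, and Rbl2, Tfdp2, Rrm2b, Mcm9 and Orc3 were named after their values were seen. The fits were tested on simulated data with independent noise in each library. Such data cannot show how the calls behave if libraries of a set share a rat. E2f1 was not analysed here.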

Additional observations from a re-analysis of the deposited data

Results flagged for a closer look

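In lithium cTAL at 72 h, 3 of the 45 members tested had 1 library far from the other 9, by a gap between neighbours above Dixon's critical share of the range (0.466). Mcm5 was highest at 9.93 TPM in library 6, with the next at 4.64 TPM, a gap of 0.624 of the range. Mcm10 was highest at 1.05 TPM in library 9, with the next at 0.55 TPM (0.562). Rfc3 was lowest at 6.56 TPM in library 9, with the next at 15.4 TPM (0.644). Chance gives such a gap in about 1 of 20 groups, and library 9 is among those that correlated least with their group.

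The lithium effect differed between segments by an interaction term in 41 members, with Rrm2 at 3.33 on the log2 scale. It differed between 24 and 12 h in 12 members, with Rrm2 at 1.94, between 36 and 24 h in 1 member, Rrm2 at 1.92, and between 72 and 36 h in 30 members, with Rrm2 at -1.93. The counts between times were 0 on means of sets.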

How the results depend on the processing

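The count of members called in CCD was between 42 and 45 at 24, 36 and 72 h in the fits over libraries (38 of 38 tested at 72 h with a minimum of 5 TPM) and between 39 and 41 on means of sets. At 12 h it was 38 in the main fit, 30 with only the groups of that time, 32 to 38 with a replicate left out and 0 on means of sets. In cTAL, 4 calls became 2 with no filter, 1 with a minimum of 5 TPM, 0 on means of sets, 0 with the replicate block and 2 without the libraries that stood apart, and leaving out sets gave 0 to 8. Between control segments 37 became 24 on means of sets. For 24 minus 12 h, 12 became 6 with a pseudocount of 0.1, 7 with no filter and 0 on means of sets, and leaving out replicates gave 1 to 13. For 36 minus 24 h and 72 minus 36 h means of sets gave 0. Leaving out replicates of 36 h gave 21 to 30 for 72 minus 36 h. For controls over time 8 became 14 with median-of-ratios scaling, 16 with quantile normalization and 0 on means of sets. The cause was not tested.

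Same-numbered libraries did not deviate together: their correlations ran from -0.162 to 0.115 at 12 h, -0.056 to 0.118 at 24 h, -0.072 to 0.03 at 36 h, -0.186 to 0.25 in CCD and -0.136 to 0.374 in cTAL at 72 h, and in no comparison did every library correlate best with its own number. With the replicate block the counts were 38, 45, 45 and 44 in CCD and 0 in cTAL.

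Some small differences without a call turned in sign. At 12 h these were Tyms (-0.051 with median-of-ratios and with quantile scaling, -0.10 to 0.13 with a replicate left out), E2f2 (-0.069 with quantile, -0.30 to 0.41 with a replicate left out), Rrm2 (-0.46 to 0.07) and Bub1b (-0.89 to 0.058). In cTAL they were Rfc2 (0.085 with median-of-ratios, 0.096 with quantile, 0.015 with the block, -0.067 to 0.099 with a set left out, 0.13 without the libraries that stood apart), Rpa1 (-0.006 on means of sets) and Rrm1 (-0.42 to 0.14 with a set left out). Between control segments they were Rfc3 (-0.024 and -0.028 with the 2 scalings), Ccne2 (-0.25 to 0.13 with a set left out, 0.19 without the libraries that stood apart) and Mcm10 (-0.32 to 0.03, and 0.076). For 24 minus 12 h it was Gins2 (-0.067 and -0.13 with the 2 scalings, and -0.089 to 0.12 with a replicate left out). Of 4531 single-gene values under alternatives, 4173 kept direction and call, 278 lost the call and 45 gained one. Depth limits are unknown from TPM.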
